A study of Bos taurus with 6 samples.

Results

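Stromal progenitors and preadipocytes, the cells from which new fat cells form, were followed in intramuscular fat (IMF) through 10 marker genes, PDGFRA, PDGFRB, CD34, THY1, DLK1, ZNF423, PDGFA, PDGFB, TCF21 and DPP4. The genes were chosen by name as markers of these cells, with earlier results of these data known, and all 10 had a row and at least 1 read among the 25444 genes of the mRNA count table, of which 17752 had a read in either library. The table holds 1 mRNA library of steers and 1 of bulls, so no spread between replicates exists for any value. Both groups were Chinese Qinchuan males by one sire, weaned at 3 months, fed alike and slaughtered at 24 months, and their IMF was dissected from the sternomandibularis muscle. The steers (castrated males, CM) had been castrated surgically at 6 months and the bulls were intact males (IM). Each library was a pool of RNA from 6 animals by the design text and from 3 by the sample labels. A pool gives 1 value whatever the number of animals in it, and no measure of how the animals differed.

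In adipose tissue the fibroblast-like cells around vessels and between fat cells carry the receptor PDGFRA, and those that commit to the fat lineage switch on ZNF423 and then the adipogenic factors. PDGFRB marks pericytes and other mural cells, the cells wrapped around small vessels, as well as part of the progenitors. CD34 and THY1 are surface proteins used to sort such cells, DPP4 marks an early and multipotent fraction of them, and DLK1, also called preadipocyte factor 1, is shed from preadipocytes and holds back their differentiation. Several of these genes are not specific. CD34 is also a protein of endothelial cells, THY1 and DPP4 are found on lymphocytes in some species, and PDGFB is made by endothelial cells and platelets.

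The 2 libraries held 12677375 reads on genes in steers and 9868415 in bulls and were brought to one scale by the median of ratios, with factors of 1.043 and 0.9585. A two-sided exact binomial test was run on the 2 counts of every gene with a read, with Benjamini-Hochberg adjustment over all of them. Calls needed both an adjusted p under 0.05 and a log2 fold change (steers over bulls) above 1 or below -1. This test compares 2 pooled libraries and not castrated with intact animals, and the 95% intervals given here cover counting error only. Of all genes tested, 4.66% were called higher and 8.50% lower in steers. Transcripts of mature adipocytes were present in both libraries, with 4513 reads of ADIPOQ in steers and 6651 in bulls, and so were those of muscle fibres, with 13852 and 19910 reads of ACTA1.

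Of the 10 marker genes 0 were called higher and 0 lower in the exact binomial test, beside 13.2% of all genes called one way or the other. Counting the adjusted p alone, 4 of the 10 passed, a share of 40% beside 39.3% of all genes. THY1 and ZNF423 were the 2 higher in steers, beside 20.4% of all genes, and PDGFRA and CD34 the 2 lower, beside 18.9%. By fold alone, without a test, 0 markers were past 1 in the direction of steers, beside 13.1% of all genes, and 2, the barely counted DLK1 and TCF21, were past it in the direction of bulls, beside 16.4% (29.5% for both directions). The median log2 fold change of the 10 genes was -0.23, beside 0.01 over all genes tested. With DLK1 at its bound and TCF21 left out, for the reasons given with their counts, the median of the remaining 9 was -0.19. Leaving THY1 aside, the summed reads of the other 9 genes were 12728 in steers against 12564 in bulls, which after scaling is -0.10 on the log2 scale (interval -0.14 to -0.07). THY1 alone took 73.7% of the reads of the 10 genes in steers and 56.6% in bulls.

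**Figure D1:**
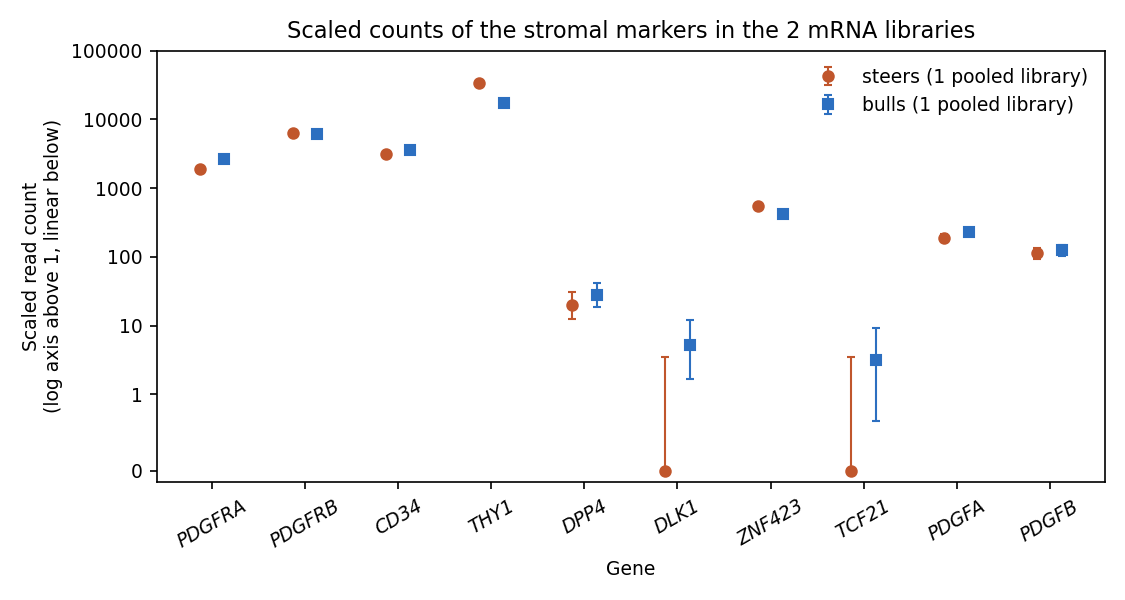
Scaled read counts of each marker gene (vertical axis, logarithmic above 1 and linear below) in the pooled library of steers (circles) and of bulls (squares), with 95% Poisson intervals. Counts are not per transcript length, so heights are compared only within a gene; THY1 shows the widest gap among the well-counted genes, and DLK1 and TCF21 are at 0 in steers.

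THY1, which encodes the glycosylphosphatidylinositol-anchored surface protein CD90 of fibroblasts, had 35642 reads in steers and 16389 in bulls, or 0.281% and 0.166% of all reads on genes. The library of steers was thus the higher of the pair. Its log2 fold change was 0.999 (interval 0.972 to 1.025), a fold of 1.998 that lay just under the threshold for a call. Upper-quartile scaling placed it at 1.01, past the threshold, and total counts at 0.76. With an assumed biological coefficient of variation (CV) of 0.1 between pools, an edgeR exact test gave THY1 an adjusted p of 2.8e-05, and with one of 0.2 an adjusted p of 0.17. In the RefSeq annotation of a later cattle assembly (ARS-UCD2.0) THY1 overlaps LOC101903835, a long non-coding RNA gene without a row in the count table. The use of strand in the counting is not given in the sources used here, so reads of these genes cannot be told apart.

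PDGFRA encodes the receptor that defines most fat cell progenitors. Reads numbered 1999 in steers against 2565 in bulls, the lower library being that of steers. After scaling, the level in bulls was 1.40 times that in steers, or -0.48 (interval -0.57 to -0.40) as a log2 fold change, and -0.72 with total counts. The adjusted p was 5.2e-28 in the exact binomial test, and 0.10 in an edgeR exact test with an assumed CV of 0.1. In such pooled tissue, fewer cells of a type and less RNA per cell cannot be told apart, for PDGFRA as for every gene here.

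PDGFRB, the related receptor of pericytes, had 6596 reads in steers and 5835 in bulls. The scaled values lay close together, with a log2 fold change of 0.05 (interval 0.00 to 0.11) and an adjusted p of 0.083 in the exact binomial test. Under total-count scaling the sign turned, to -0.18. The count ratio of one receptor to the other within a library does not depend on scaling, and PDGFRA to PDGFRB stood at 0.303 (interval 0.288 to 0.319) in steers and 0.440 (0.419 to 0.461) in bulls. The receptor ratio was therefore lower in steers by 0.54 on the log2 scale (interval of the log2 ratio -0.64 to -0.44).

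CD34, a sialomucin on progenitors and vessel-lining cells, had 3225 reads in steers against 3387 in bulls. Scaled, this was a log2 fold change of -0.19 (interval -0.26 to -0.12), lower in steers, with an adjusted p of 3.9e-07 in the exact binomial test. With total counts CD34 was at -0.43 (interval -0.50 to -0.36). With an assumed CV of 0.1 the adjusted p of CD34 in an edgeR exact test was 0.65. DPP4, a surface peptidase, was scarce, with 21 reads in steers against 27 in bulls. The log2 fold change of DPP4, -0.48, had an interval from -1.38 to 0.39, and no difference was detected. With total counts DPP4 was at -0.72. A long non-coding RNA gene, LOC112442563, overlaps DPP4 in the RefSeq annotation and has no row in the table.

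**Figure D2:**
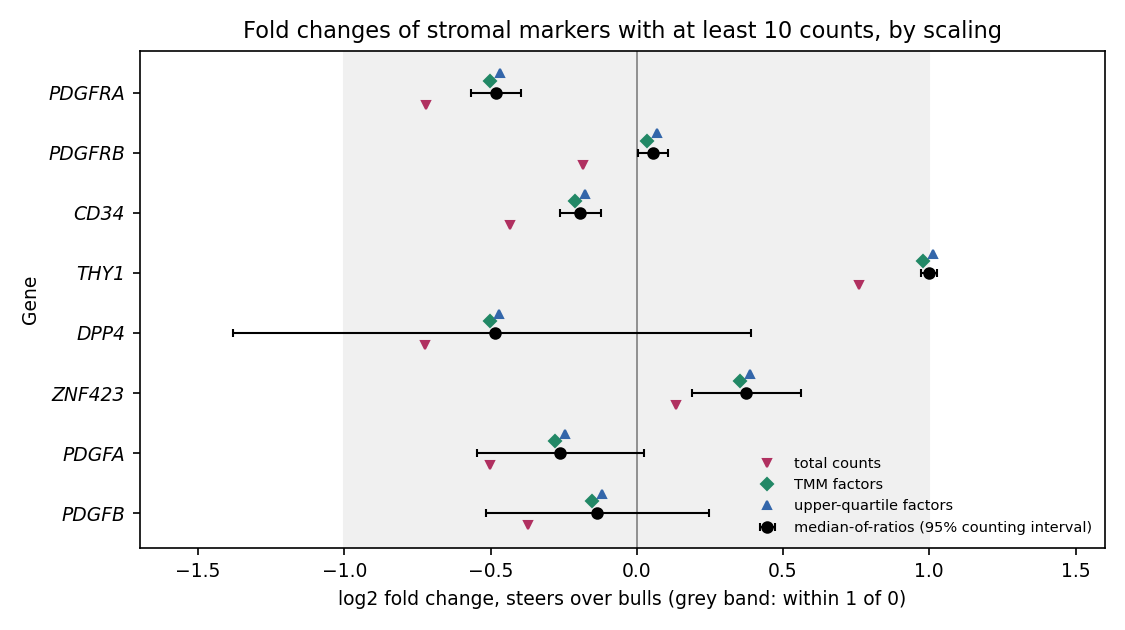
Log2 fold change (steers over bulls, horizontal axis) of the 8 marker genes with at least 10 reads over both libraries. Circles with bars are median-of-ratios values with 95% counting intervals and the other symbols are the other scalings. All 8 circles lie within 1 of 0, THY1 at the edge of that band, and PDGFRB crosses 0 with total counts.

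Of the genes of commitment, ZNF423, a zinc finger factor that sensitises progenitors to BMP signals and precedes PPARG, had 571 reads in steers and 405 in bulls. Steers were the higher, by a log2 fold change of 0.37 (interval 0.19 to 0.56) and an adjusted p of 3.1e-04 in the exact binomial test. With total counts it was 0.13, with an interval from -0.05 to 0.32, and with an assumed CV of 0.1 the adjusted p in an edgeR exact test was 0.30. Relative to PDGFRA, ZNF423 stood at 0.286 reads per read in steers (interval 0.260 to 0.314) and 0.158 in bulls (0.142 to 0.175), a log2 difference of 0.86 (0.65 to 1.06).

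DLK1 had 0 reads in steers, which allows up to 3 in that library, and 5 in bulls. Set against the floor of 3 reads, the 5 reads of bulls correspond to a level at least 1.81-fold lower in steers, a bound that leaves out the counting error of those 5 reads. The interval of the log2 fold change of DLK1 reached up to 0.00, and the adjusted p was 0.062 in the exact binomial test, so DLK1 did not pass. At the threshold reached in this table a gene needed 6 reads, all of them in bulls, to pass the adjusted p. TCF21, a transcription factor of visceral and trunk fat progenitors, had 0 reads in steers and 3 in bulls, both at or under the floor, so no fold is given. Preadipocyte factor 1 and TCF21 were therefore at the limit of detection in IMF of both groups, in libraries with 6596 and 5835 reads of PDGFRB.

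The ligands were also sparse. PDGFA, whose homodimer binds PDGFRA, had 198 reads in steers against 218 in bulls, at -0.26 (interval -0.55 to 0.02) on the log2 scale. PDGFB, the ligand through which endothelial cells recruit pericytes, had 118 against 119 reads, at -0.13 (interval -0.51 to 0.25). Adjusted p in the exact binomial test was 0.14 for PDGFA and 0.64 for PDGFB, and each interval holds 0. With total counts PDGFA was at -0.50, with an interval of -0.79 to -0.22 that does not hold 0, and PDGFB at -0.37 (-0.75 to 0.01). PDGFA to PDGFRA stood at 0.0990 reads per read in steers and 0.0850 in bulls, and PDGFB to PDGFRB at 0.0179 and 0.0204. The intervals of both differences held 0, from -0.08 to 0.52 and from -0.57 to 0.19 on the log2 scale. LOC101906018, a protein-coding gene without a row in the table, overlaps PDGFB in the RefSeq annotation.

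**Figure D3:**
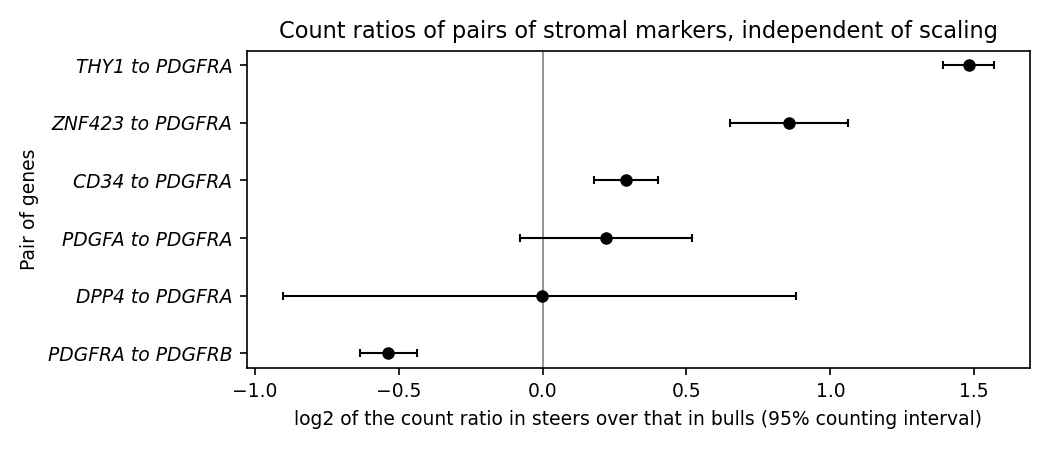
Log2 of the count ratio of 2 marker genes in steers over the same ratio in bulls (horizontal axis), with 95% counting intervals. Pairs with PDGFRA as the denominator and the pair of receptors are shown; THY1, ZNF423 and CD34 lie to the right of 0, the receptor pair to the left, and the bars of PDGFA and DPP4 cross 0.

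The ratio of THY1 to PDGFRA differed most between the libraries among these pairs, at 17.8 in steers (interval 17.0 to 18.7) and 6.39 in bulls (6.13 to 6.66), a log2 difference of 1.48 (1.39 to 1.57). For CD34 to PDGFRA the log2 difference was 0.29 (0.18 to 0.40). For DPP4 to PDGFRA it was 0.00, although the interval ran from -0.90 to 0.88. Genes used for the same cell type thus did not keep a fixed proportion to each other in the 2 libraries. These ratios share PDGFRA as denominator, itself lower in steers at -0.48, and CD34 was itself lower at -0.19. Several of the genes are also found in other cell types, as said above.

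**Figure D4:**
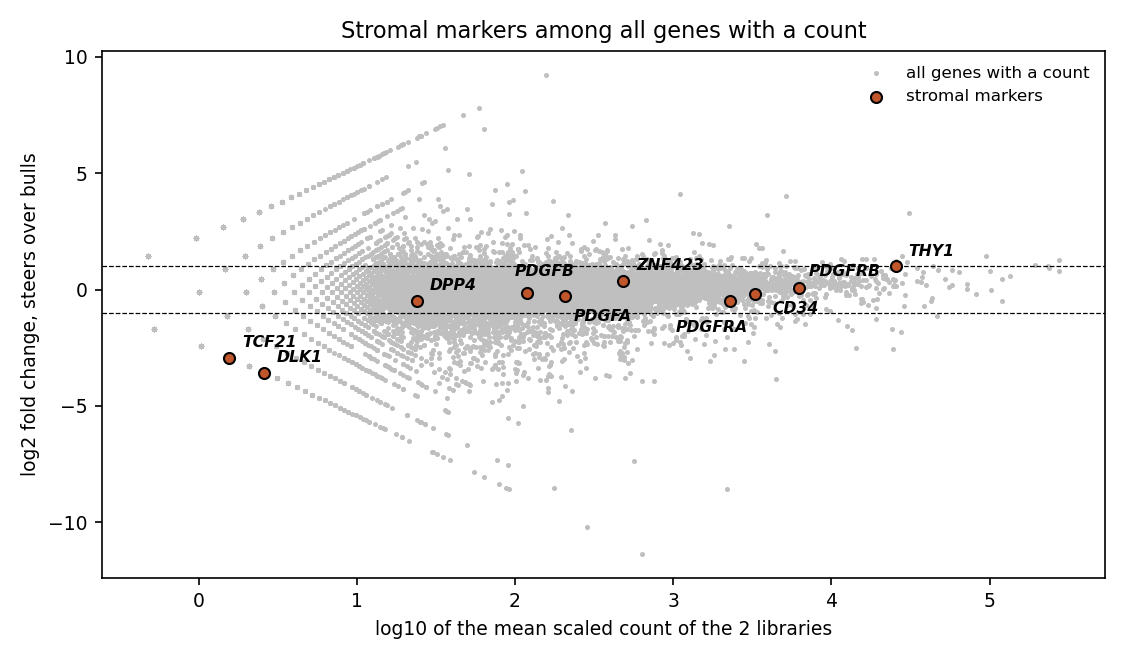
Log2 fold change (steers over bulls) of every gene with a read, against the log10 mean scaled count of the 2 libraries. The stromal markers (large circles) lie within the cloud of genes of like count, none beyond the dashed lines at 1 and -1 except DLK1 and TCF21 at very low counts, which were drawn with 0.5 reads added.

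The other genes of the PDGF pathway came from a list of 22, of which 21 had reads. Their median log2 fold change was 0.02, and 0 were called in either direction, beside 13.2% of all genes. By the adjusted p alone 7 of the 21 were higher and 7 lower in steers, beside 20.4% and 18.9% of all genes. The highest counts were those of LRP1, a co-receptor of PDGFRB, with 63517 reads in steers against 42460 in bulls, at 0.46 (interval 0.44 to 0.48), PDGFRL, a receptor-like gene, at 0.30 (0.23 to 0.37), and SHC1, an adaptor of activated receptors, at 0.76 (0.68 to 0.84).

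In a list of 19 genes of adipocyte commitment, 17 were in the table, with a median log2 fold change of 0.14. Of these 17, 1 was called higher and 2 lower in steers, beside 4.66% and 8.50% of all genes. By the adjusted p alone 7 were higher and 7 lower in steers, beside 20.4% and 18.9% of all genes. HES1, a target of Notch signals, was called higher in steers, with 139 against 55 reads, at 1.22 (interval 0.76 to 1.69), a call lost with total counts at 0.98. GATA2 and GATA3, which hold preadipocytes back from differentiation, were both called lower, GATA3 on only 4 reads in steers and 16 in bulls, at -2.12 (interval -4.16 to -0.49). EBF1, CEBPD and LPAR1 had the most reads and were not called, at -0.17, -0.57 and 0.59. Beside ZNF423, its relative and antagonist ZNF521 was at 0.06 (interval -0.10 to 0.23) and PPARG at 0.32 (0.06 to 0.59). With total counts PPARG was at 0.08. CEBPA, an adipogenic factor, was lower in steers and not called, with 409 reads in steers against 668 in bulls. Its log2 fold change was -0.83 (interval -1.01 to -0.65), and -1.07 with total counts. ZNF521, PPARG, CEBPA and GATA2 are named for their role, with their values known.

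Other stromal markers, 25 of a list of 27 being in the table, had a median log2 fold change of 0.40, with 20 above 0. Of these 25, 4 were called higher and 0 lower in steers, beside 4.66% and 8.50% of all genes. Counting the adjusted p alone, 15 were higher and 3 lower, beside 20.4% and 18.9% of all genes. OSR1, a transcription factor of connective tissue progenitors, was the largest rise at 2.11 (interval 1.92 to 2.32), from 253 reads in bulls to 1192 in steers. COL3A1 and COL1A1, the fibrillar collagens with the most reads of the list, were at 1.27 and 1.00 and both called, the latter barely past the threshold. DCN, the small proteoglycan decorin, was at 0.04. With total counts OSR1 and COL3A1 alone of these 4 stayed above 1, COL1A1 being at 0.77 and COL15A1, a vessel and fibroblast collagen, at 0.97. THY1 reads amounted to 0.0397 of the summed reads of the list in steers and 0.0382 in bulls, a log2 difference of 0.06 (interval 0.03 to 0.08), whereas for PDGFRA it was -1.43 (-1.51 to -1.34). COL1A1 and COL3A1 made up most of that sum. Without them, a choice made after their values were seen, the log2 difference was 0.70 (0.67 to 0.73) for THY1 and -0.78 (-0.87 to -0.70) for PDGFRA.

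Mural cell markers, 11 of a list of 12 being in the table, had a median log2 fold change of 0.16. Of these 11, 1 was called higher and 1 lower in steers, beside 4.66% and 8.50% of all genes. The adjusted p alone was passed by 5 higher and 4 lower, beside 20.4% and 18.9% of all genes. ACTA2 and TAGLN, smooth muscle genes, were at -0.66 and 0.45, MCAM was called lower in steers at -1.26 (interval -1.29 to -1.23), and HIGD1B was called higher at 1.38 on 51 and 18 reads. PDGFRB was 0.282 of the summed reads of this list in steers and 0.157 in bulls, a log2 difference of 0.85 (interval 0.79 to 0.91). MCAM had 11693 of those reads in steers and 25750 in bulls, and without it, a choice made after its values were seen, the difference for PDGFRB was 0.16 (0.09 to 0.22). Endothelial markers had a median of -0.18, with 0 of 12 called by the exact binomial test, beside 13.2% of all genes. Of the same 12, 2 higher and 5 lower passed the adjusted p alone, beside 20.4% and 18.9% of all genes. PECAM1, VWF and KDR were at 0.16, -0.19 and -0.09. CD34 was 0.283 of the summed reads of the endothelial markers in steers and 0.313 in bulls, a log2 difference of -0.15 (interval -0.23 to -0.07). For PDGFB the difference was -0.09 (-0.46 to 0.28).

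**Figure D5:**
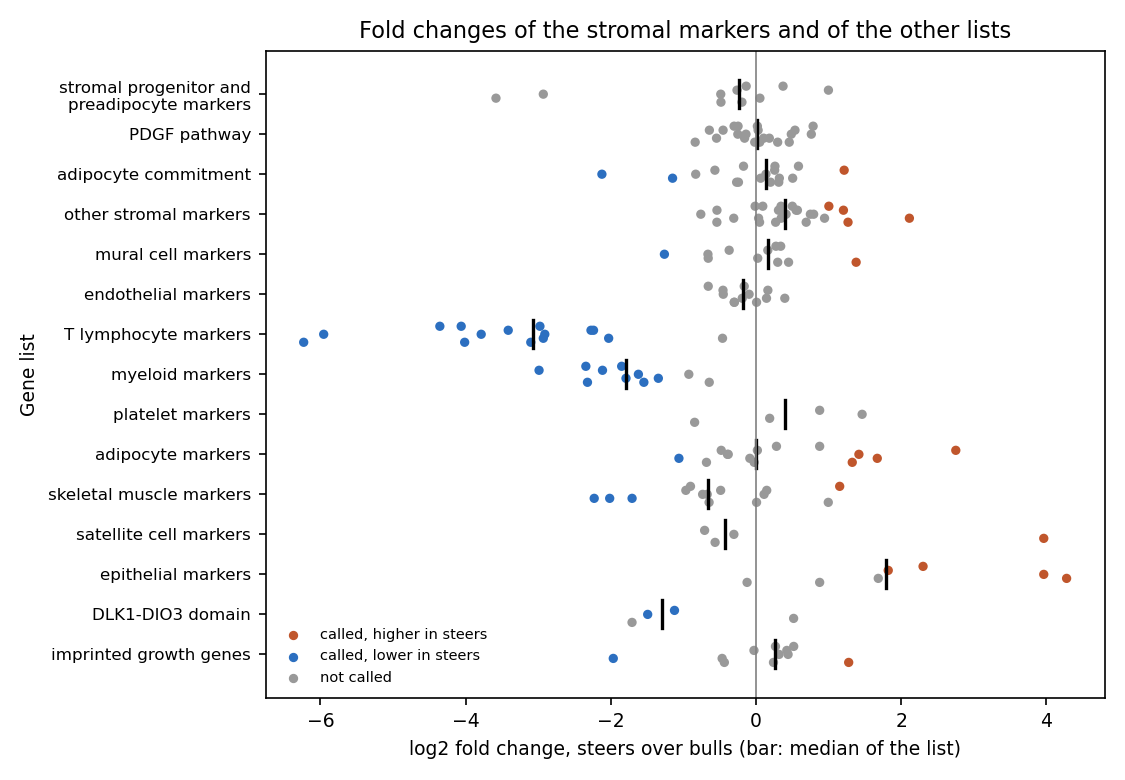
Log2 fold change (steers over bulls, horizontal axis) of each gene with a read in the stromal progenitor and preadipocyte markers and in the other lists. Colour marks genes called higher or lower in steers and the bars are list medians, computed with 0.5 reads added. No stromal progenitor marker is coloured, while 14 of 15 T lymphocyte markers and 9 of 11 genes of the myeloid list are called lower.

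The counts of called genes in the lists that follow stand beside 4.66% of all genes called higher and 8.50% called lower. Of 15 T lymphocyte markers 14 were called lower in steers, their reads summing to 221 in steers and 1408 in bulls, with CD3G at 0 in steers and at 34 in bulls. DPP4 per read of these markers was 0.0950 in steers and 0.0192 in bulls, a log2 difference of 2.31 (interval 1.38 to 3.21), and THY1 was higher in steers, where these markers were lower. The part of lymphocytes in either value was not tested. Genes of the myeloid list summed to 20818 and 44182 reads, 9 of 11 being called lower. Among the 9 was PTPRC, a gene of leukocytes in general and not of myeloid cells alone, with 107 and 780 reads. Epithelial markers summed to 362 reads in steers and 58 in bulls, with 4 of 7 called higher, EPCAM at 0 in bulls, and KRT8 at 4.28 (interval 3.20 to 5.62). DPP4 is also an epithelial gene, and per read of the epithelial markers it stood at 0.0580 in steers and 0.466 in bulls. This was a log2 difference of -3.00 (interval -3.99 to -2.02), opposite in sign to that with the T lymphocyte markers. Both ratios rest on 21 reads of DPP4 in steers and 27 in bulls. The summed T lymphocyte markers were at -2.79 and the summed epithelial markers at 2.52 on the log2 scale, against -0.48 for DPP4. The signs of the 2 ratios thus follow the marker sums and show no difference in DPP4 itself. The part of epithelial cells in the counts of DPP4 was not tested. Platelet markers summed to 347 and 312 reads, with 0 of 4 called, PPBP, GP1BA and GP9 at 0 in both libraries and PF4 at 1 and 0 reads. Skeletal muscle markers summed to 34836 and 49275 reads, with 1 of 14 called higher and 3 lower. Satellite cell markers summed to 197 and 209 reads, with PAX7 at 0 in both libraries and 1 of 4 called, MYF5 at 17 reads in steers and 1 in bulls. Adipocyte markers had a median of 0.00 and summed to 72428 reads in steers and 53960 in bulls. Of 14, 4 were called higher, among them CIDEA at 2.75 and DGAT2 at 1.33, and FABP4 was called lower at -1.06. The adjusted p alone was passed by 6 higher and 5 lower, beside 20.4% and 18.9% of all genes. Among the lower were ADIPOQ at -0.68 and PLIN1 at -0.38, and among the higher LPL at 1.67 and GPD1 at 1.42. ZNF423 per read of the adipocyte markers differed by 0.07 on the log2 scale (interval -0.11 to 0.26). DGAT2 had 23283 of the adipocyte marker reads in steers and 8528 in bulls. The ZNF423 ratio therefore depends on DGAT2, and a ratio without that gene was not computed.

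DLK1 lies in an imprinted domain with MEG3, a maternally expressed non-coding RNA, and with RTL1 and DIO3. MEG3 was called lower in steers, with 36 reads in steers against 93 in bulls, at -1.49 (interval -2.09 to -0.92). RTL1 had 15 and 30 reads and was called at -1.12 (-2.12 to -0.18), with an adjusted p of 0.042 in the exact binomial test. DIO3, which inactivates thyroid hormone, had 170 and 109 reads and was at 0.52 (0.16 to 0.88), so the genes of the domain did not all lie on one side of 0. Of imprinted growth genes elsewhere in the genome, with 11 of 12 in the table and a median of 0.27, MEST was called higher at 1.28 and NNAT lower at -1.97, and IGF2 was at -0.03.

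In the RefSeq annotation the genes next to the markers were read as well, taking the nearest protein-coding gene in the table on each side, a choice by position alone that was added after the first results were seen. Of these 20 neighbours 17 had reads, 0 were called higher and 3 lower in steers, a share of 17.6% beside 13.2% of all genes. KIT, the neighbour of PDGFRA and a receptor of the same kinase class, had 145 reads in steers and 284 in bulls, at -1.09. EYA4, beside TCF21, had 3 and 15 reads, and RTL1 beside DLK1 is described above. CSF1R, next to PDGFRB and a macrophage gene, was at -0.92 and not called, with 7057 and 12309 reads, while PDGFRB stood at 0.05.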

How the data were processed

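IMF mRNA of steers and bulls was sequenced by the authors on an Ion Proton sequencer, with 1 pooled library per group. Libraries were grouped by their labels. The authors removed adaptors and low-quality reads and used MapSplice for alignment to a bovine assembly per the paper, whereas the submitters' processing notes name BWA and GRCh37.p13, a human build, without a role. The counting program and use of strand are not given in the sources used here. The table the authors deposited holds whole-number read counts for each gene symbol, without normalization. Multiply placed reads could shift counts of related genes.

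Counts were scaled with median-of-ratios factors (numpy 2.4.6) and compared with the exact binomial test of scipy 1.17.1. The test was tried on simulated Poisson counts without variation between pools, so that check covers counting error only. edgeR's quasi-likelihood test and DESeq2 need replicates and were not run. A fold uses the plain ratio of scaled counts, with 0.5 reads added where a library is at 0, and list medians add 0.5 throughout. Intervals of single folds and of ratios within a library are Clopper-Pearson; those of differences between ratios are exact conditional intervals under 20000 reads in all and Woolf intervals above. Alternatives were total counts, TMM and upper-quartile factors (edgeR 4.0.16), other filters and priors, and edgeR exact tests with assumed CVs of 0.1, 0.2 and 0.4. The marker genes and the 14 other lists, written from general knowledge, were chosen with earlier results of these data known. Of each list, the 3 genes with the most reads and the largest called rise and fall were eligible to be named; others, such as GATA2, EPCAM, PF4 and ADIPOQ, were named for their role after their values were seen. Older symbols were matched through a RefSeq table of ARS-UCD2.0, whose coordinates are not given since it is another build. Gene levels per transcript length, protein and promoter sequences and the small RNA libraries were not analysed here.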

Additional observations from a re-analysis of the deposited data

How the results depend on the processing

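With 1 library per group, no result has a replicate check, and an effect of castration cannot be told apart from a difference between these 2 pools. No paired analysis was possible because each mRNA group holds a single library. The 0 marker genes called higher became 1 with upper-quartile factors (THY1) and 2 without a fold threshold, and the 0 called lower became 1 with total counts (DLK1), 2 without a fold threshold and 2 by fold alone (DLK1 and TCF21). No marker gene was called in an edgeR exact test with an assumed CV of 0.1, 0.2 or 0.4, where 1 of the 10 (THY1) had an adjusted p under 0.05 at 0.1. The median log2 fold change of the markers was -0.47 with total counts, -0.25 with TMM, -0.21 with upper-quartile factors and -0.16 for the 8 markers with at least 10 reads. PDGFRB turned from 0.05 to -0.18 with total counts, which moved the median of all genes from 0.01 to -0.23. Over all genes, 827 were called higher and 1509 lower. The edgeR exact test called 368 and 762 with an assumed CV of 0.2 and 52 and 93 with one of 0.4, while the exact binomial test with no fold threshold gave 3619 and 3354, and fold alone 2317 and 2912. Total counts called 586 higher and 2089 lower. Depth limited DLK1 and TCF21, whose 5 and 3 reads, all in bulls, could not reach an adjusted p under 0.05 with median-of-ratios scaling.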
